A study of Homo sapiens with 12 samples.

Results

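The miR-191 and miR-425 cluster is a pair of miRNA hairpins that lie next to each other in the host gene DALRD3, and it was described here by the reads of all 4 of its mature arms, hsa-mir-191-5p, hsa-mir-191-3p, hsa-mir-425-5p and hsa-mir-425-3p. They were chosen by name, as both arms of each hairpin, out of 1733 miRNAs listed in the series, and all 4 passed the filter on low counts in every comparison. The 12 small RNA libraries came from AsPC-1 and PANC-1, 2 established human PDAC cell lines, the first from ascites and the second from a primary tumor. Each line had 3 control cultures, labelled as wild type without treatment, and 3 cultures transfected with siRNA against MYEOV. A negative control siRNA is named among the reagents, and whether the control cultures received it is not stated. RNA was taken 48 h after transfection by the labels and after a shorter time by the methods. AsPC-1 was grown in RPMI and PANC-1 in DMEM, so the line and its medium cannot be told apart. MYEOV has 2 named siRNAs, and the labels do not say which culture received which, nor whether the cultures of a group were started separately, so the p-values below measure the spread between these samples. MYEOV mRNA is not measured in small RNA libraries, so the knockdown was not checked here.

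A miRNA gene is transcribed as a long primary transcript, from which Drosha cuts the hairpin and Dicer then cuts the duplex of the 5p and 3p arms. One arm usually stays in the Argonaute protein as the guide, pairs with target mRNAs through its seed (bases 2 to 8) and represses them, while the other is mostly degraded. Neighboring hairpins in 1 intron can come from the same primary transcript, yet each is processed and its arms are degraded on their own, so mature levels from 1 transcript need not be equal. miR-191-5p is abundant in many tissues and is often used as a reference miRNA in qPCR, and DALRD3 encodes a protein needed for a methylation of arginine tRNAs.

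In GRCh37, the build the authors mapped to (hg19), MIR191 lies at chr3:49058051-49058142 and MIR425 at chr3:49057581-49057667, both on the minus strand as DALRD3 is (chr3:49052921-49059726). MIR191 comes first in the direction of transcription, and 383 bases separate the hairpins. In the GENCODE annotation lifted to this build, both hairpins lie in intron 1 of 4 of the 15 DALRD3 transcripts (DALRD3-201, DALRD3-205, DALRD3-212 and DALRD3-213) and overlap no exon of any. The other 11 transcripts, among them the canonical DALRD3-202, start downstream of both hairpins and do not contain them. The cluster is thus intronic with respect to the transcripts that start upstream of it, and DALRD3 mRNA was not measured in these libraries.

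**Figure D1:**
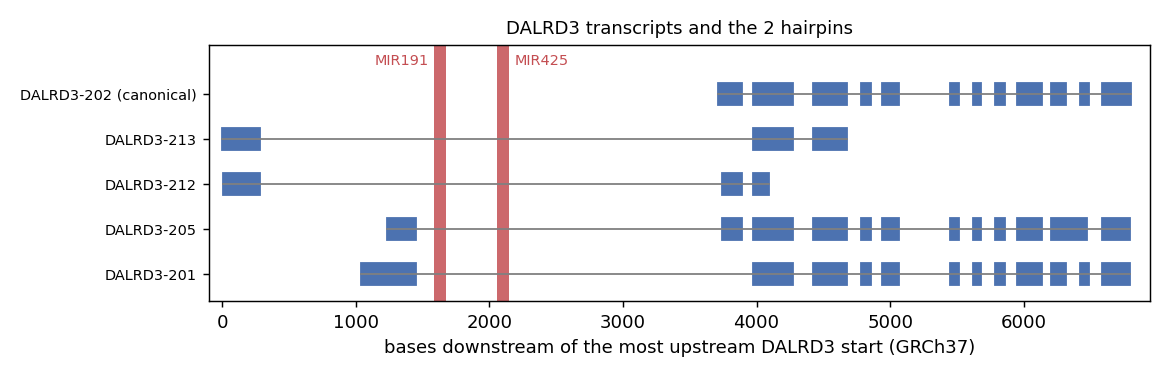
The plot shows the DALRD3 transcripts that contain the hairpins and the canonical one, with bases downstream of the most upstream DALRD3 start in GRCh37 on the x axis, exons as blue boxes, introns as lines and the 2 hairpins as red bands. Both bands fall in intron 1 of the 4 lower transcripts, and DALRD3-202 begins to their right.

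The sequences below are from RefSeq (GRCh38.p14), where 3 of the 4 mature arms were matched by name. They are printed because the arms are counted as separate miRNAs and each has its own seed, marked by capitals.
hsa-mir-191-5p (chr3:49020672-49020694, minus strand): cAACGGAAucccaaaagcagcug
hsa-mir-191-3p (chr3:49020631-49020652, minus strand): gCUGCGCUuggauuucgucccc
hsa-mir-425-3p (chr3:49020159-49020180, minus strand): aUCGGGAAugucguguccgccc
The 3 seeds differ from each other, and none of the other mature names among the 2370 in the table shares any of them. The hairpin of miR-191 (chr3:49020618-49020709, minus strand), with its 5p arm at bases 16 to 38 and its 3p arm at bases 58 to 79 in capitals, has 19 bases between the arms.
MIR191 hairpin: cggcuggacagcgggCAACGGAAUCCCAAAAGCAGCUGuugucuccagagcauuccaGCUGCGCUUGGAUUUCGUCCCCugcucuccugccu

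The libraries held 3805084 to 7311783 counted reads, and a count of 3, the limit that a count of 0 allows, equals 0.41 to 0.79 on the counts-per-million (CPM) scale. No libraries were identical. The library AsPC-1 control 1 stood apart from its group, with a chi-square per degree of freedom of 224 and 183 against the other controls compared with 22.1 between those 2. Without it the LFC of the 4 arms after knockdown in AsPC-1 was -0.02 (hsa-mir-191-5p), 0.28 (hsa-mir-191-3p), -0.37 (hsa-mir-425-5p) and -0.21 (hsa-mir-425-3p), and the difference between the lines' controls was 0.80, 1.30, 1.17 and 0.84 in the same order, with the same calls by edgeR as with it. The epithelial miRNAs of the miR-200 family summed to 48678 to 52667 CPM in the AsPC-1 libraries but only to 212 to 276 CPM in PANC-1, and all 5 were lower in PANC-1. Markers of acinar cells summed to at most 0.51 CPM, those of blood cells to at most 5.73 CPM and miR-122-5p of hepatocytes to at most 10.8 CPM. The muscle miRNAs miR-1-3p and miR-133a-3p summed to 127 to 177 CPM in PANC-1 and to 0.68 to 1.54 CPM in AsPC-1. The islet list summed to 15127 to 55891 CPM, nearly all of it from miR-7-5p, and miR-375 was at 0.62 to 12.1 CPM. The part of these differences between the lines in the results below was not tested.

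The 4 arms differed widely in level. hsa-mir-191-5p took 0.729% to 0.823% of the counted reads in the AsPC-1 libraries, where it ranked 25 to 28 among all miRNAs, and 1.32% to 1.80% in PANC-1, where it ranked 10 to 14. hsa-mir-425-5p took 0.0828% to 0.121% in the libraries of AsPC-1 and 0.267% to 0.343% in those of PANC-1. Both 5p arms were thus among the abundant miRNAs of these cells. hsa-mir-425-3p took 0.0186% to 0.0251% in PANC-1, against 0.00765% to 0.0107% in AsPC-1. hsa-mir-191-3p was the rarest arm, with 46 to 110 reads per library. In all 12 libraries the order was therefore hsa-mir-191-5p, hsa-mir-425-5p, hsa-mir-425-3p and hsa-mir-191-3p, on a scale of reads per mature miRNA, with arms of nearly equal length and a ligation efficiency of each that was not measured. These are levels of whole cultures, in which fewer cells with a miRNA and less of it per cell cannot be told apart.

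To ask whether the lines differ without treatment, the control cultures were compared after TMM scaling of those 6 libraries. All 4 arms were higher in PANC-1 than in AsPC-1, by 1.76-fold to 2.32-fold. The PANC-1 cultures lay above the AsPC-1 cultures without overlap for each arm, as they did for 46.6% of all miRNAs tested. Of 627 miRNAs tested, 519 (82.8%) were called at an adjusted p under 0.05 (the quasi-likelihood test of edgeR, adjusted after Benjamini and Hochberg across the tested miRNAs and used throughout for single miRNAs), 293 of them (46.7%) higher and 226 (36.0%) lower in PANC-1, so that a call was what most miRNAs showed.
hsa-mir-191-5p was at 9043, 8840 and 8496 CPM in the AsPC-1 controls and at 15398, 15930 and 15067 CPM in the PANC-1 controls. Its level was 8793 ± 276 (SD, n = 3) against 15465 ± 435 (SD, n = 3), a log2 fold change (LFC) of 0.81 (SE 0.09, adjusted p = 5.76e-07). hsa-mir-425-5p was at 1329, 1237 and 1288 CPM in AsPC-1 and at 2682, 2839 and 3169 CPM in PANC-1 (LFC 1.17, SE 0.10, adjusted p = 3.27e-08). hsa-mir-191-3p, the passenger arm, was at 9.86, 7.34 and 8.24 CPM against 19.4, 19.4 and 20.2 CPM (LFC 1.21, SE 0.18, adjusted p = 2.12e-05). hsa-mir-425-3p was at 118, 109 and 108 CPM against 215, 186 and 190.6 CPM (LFC 0.83, SE 0.11, adjusted p = 4.02e-06).

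These differences between the lines depend on how the libraries are scaled. With upper-quartile factors the median LFC of all miRNAs moved by -0.92, hsa-mir-191-5p and hsa-mir-425-3p turned to -0.11 and -0.098, neither passed the test, and hsa-mir-191-3p (0.29) did not pass it either, while hsa-mir-425-5p kept its call (LFC 0.25, adjusted p = 0.0347). Relative to the median of all miRNAs, which was 0.27 with TMM, hsa-mir-191-5p was 0.55 higher, hsa-mir-191-3p 0.95, hsa-mir-425-5p 0.91 and hsa-mir-425-3p 0.56 on the log2 scale. A scaling factor shifts every miRNA of a library alike, so these relative values are nearly fixed by construction over the 5 scalings and say nothing of the stability of the line difference.

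In AsPC-1, the knockdown was followed by a lower level of the guide arm of MIR425 and by no called change of either arm of MIR191. hsa-mir-425-5p was the 1 of the 4 arms that was called, and 57 of 498 miRNAs (11.4%) were called in this line. hsa-mir-425-5p was at 1157, 1097 and 1159 CPM in the controls and at 863, 899 and 836 CPM in the knockdown cultures, scaled within the line. Every knockdown culture lay below every control, as was the case for 13.7% of the miRNAs tested. The level was 1138 ± 35 (SD, n = 3) against 866 ± 32 (SD, n = 3), and it fell by 0.39 on the log2 scale (SE 0.08, 95% confidence interval -0.56 to -0.23, adjusted p = 0.00327), to 0.76 of the control level. Without AsPC-1 control 1 the LFC was -0.37 (adjusted p = 7.87e-05), and over the 8 other settings of the fit and the 6 fits that each left out 1 library it stayed between -0.49 and -0.36 with an adjusted p of at most 0.0445. hsa-mir-425-3p was at 102, 96.5 and 96.9 CPM against 78.2, 84.0 and 87.1 CPM. Here, too, the groups did not overlap, but the difference was not called (LFC -0.25, SE 0.10, adjusted p = 0.108). It was called in 1 of the 8 other settings, the fit of all 12 libraries together, where the median of all miRNAs was 0.10 lower (LFC -0.34, adjusted p = 0.0357).

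hsa-mir-191-5p was at 7868, 7844 and 7646 CPM in the AsPC-1 controls and at 7452, 7451 and 7889 CPM after knockdown, and 1 knockdown culture lay above all controls. The LFC was -0.04 (95% confidence interval -0.19 to 0.12, adjusted p = 0.812), so the interval leaves out a fall of the size measured for hsa-mir-425-5p. hsa-mir-191-3p was at 8.58, 6.51 and 7.41 CPM against 8.10, 8.20 and 9.03 CPM, with overlapping groups and a wider interval (LFC 0.17, 95% confidence interval -0.25 to 0.60, adjusted p = 0.614).

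In PANC-1, none of the 4 arms was called, while 121 of 551 miRNAs (22.0%) were. An unadjusted p under 0.05 was reached by hsa-mir-191-5p, and 197 of the 551 miRNAs reached one. hsa-mir-191-5p was at 16614, 16988 and 16037 CPM in the controls and at 15105, 13765 and 14361 CPM after knockdown, so that every knockdown culture lay below every control, as was the case for 17.1% of the miRNAs tested. The level was 16546 ± 479 (SD, n = 3) against 14411 ± 671 (SD, n = 3). The LFC was -0.20 (SE 0.09, 95% confidence interval -0.37 to -0.03, adjusted p = 0.0904 by edgeR). This arm lay near the threshold, and it was called in 3 of the 8 other settings, among them total counts alone (LFC -0.34, adjusted p = 0.00538, with the median of all miRNAs 0.15 lower) and the Wald test of DESeq2 (LFC -0.21, adjusted p = 0.0307), and the adjusted p ranged from 0.00538 to 0.414 over the 8. Its passenger arm hsa-mir-191-3p was at 20.9, 20.7 and 21.5 CPM against 15.9, 19.5 and 17.6 CPM, again without overlap (LFC -0.25, SE 0.16, adjusted p = 0.274).
hsa-mir-425-5p was at 2893, 3027 and 3373 CPM in the PANC-1 controls and at 3064, 2787 and 3174 CPM after knockdown. The groups overlapped, and the LFC was -0.04 (95% confidence interval -0.22 to 0.13, adjusted p = 0.768). With total counts alone the LFC of hsa-mir-425-5p was -0.18, not called. On that scale every knockdown culture lay below every control, as did 28.7% of the miRNAs tested. hsa-mir-425-3p was at 232, 199 and 203 CPM against 222, 224 and 202 CPM, with an LFC of 0.03 (95% confidence interval -0.16 to 0.22, adjusted p = 0.836), and with total counts alone it was -0.11.

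**Figure D2:**
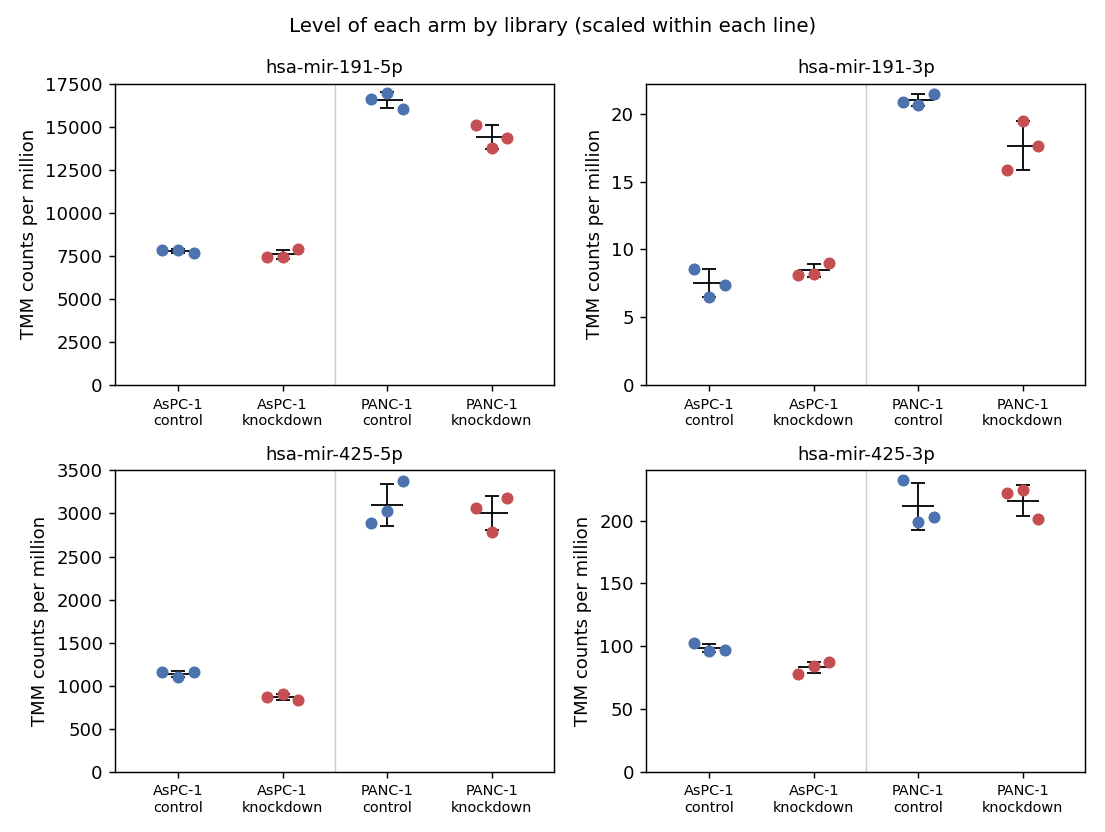
The plots show the level of each arm in CPM, TMM-scaled within each line, for the 12 libraries, with control cultures in blue, knockdown cultures in red and bars for the mean and SD of 3. The knockdown cultures lie below the controls without overlap for both miR-425 arms in AsPC-1 and for both miR-191 arms in PANC-1, as do 13.7% and 17.1% of all miRNAs tested in these lines. The heights of the lines are not on a common scale.

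The knockdown effect was then compared between the lines in 1 fit of all 12 libraries. No arm was called by edgeR in this test, in which 2 of 650 miRNAs (0.308%) were called. Before adjustment, 2 of the 4 arms (both of MIR425) and 74 of the 650 miRNAs were under 0.05. For hsa-mir-425-5p the effect was 0.45 higher in PANC-1 than in AsPC-1 (SE 0.14, adjusted p = 0.110 by edgeR), where the median of all miRNAs was 0.12. Over the 7 other settings it ran from 0.22 (total counts alone) to 0.50, with an adjusted p of 0.0696 to 0.477. The adjusted p fell under 0.05 when AsPC-1 control 1 (0.0333), AsPC-1 control 2 (0.0429) or PANC-1 control 3 (0.0473) was left out, and was up to 0.345 for the other 9 libraries. The difference was 0.37 for hsa-mir-425-3p (adjusted p = 0.305), -0.07 for hsa-mir-191-5p (0.912) and -0.32 for hsa-mir-191-3p (0.681, by edgeR). Over the 7 other settings these ran, in the same order, from 0.15 to 0.43, from -0.29 to -0.01 and from -0.55 to -0.27. None of the 3 was called in any of them. The call of hsa-mir-425-5p in AsPC-1 and not in PANC-1 is therefore not shown to be a difference between the lines by this test.

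**Figure D3:**
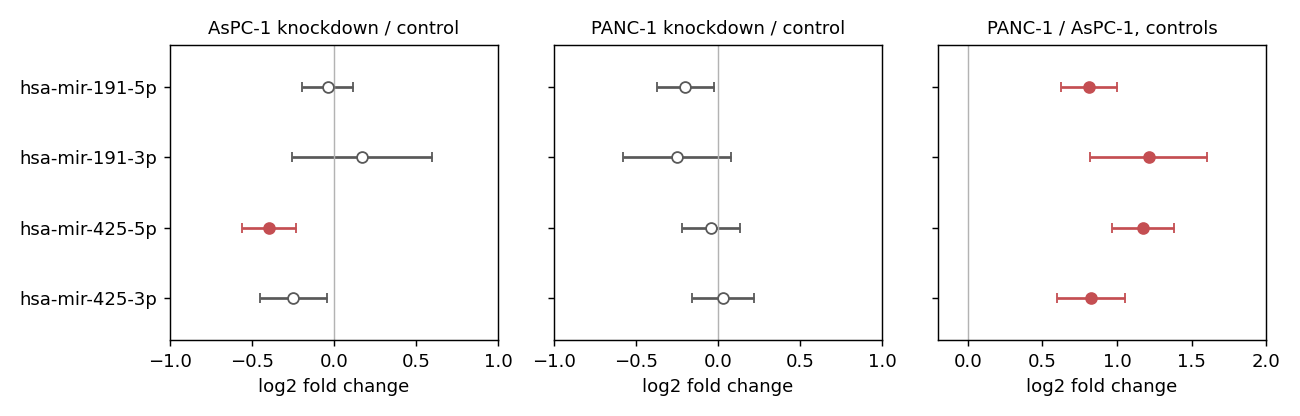
The plots show the log2 fold change of each arm with its 95% confidence interval for knockdown against control in each line and for the controls of PANC-1 against those of AsPC-1, with filled red points where the adjusted p is under 0.05. Of the 8 knockdown values, the 1 of hsa-mir-425-5p in AsPC-1 is filled, at -0.39, and all 4 line differences are, with TMM scaling.

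A ratio of 2 miRNAs in the same library does not depend on how the libraries are scaled, so the arms and the hairpins were also compared as read ratios. Over the 3 ratios and 5 contrasts, 15 two-sided exact permutation tests were run and their p-values were adjusted together. With 3 cultures against 3 the smallest p is 0.1, and with labels permuted within both lines or both treatments it is 0.005. Ratios of other miRNAs were not tested, so the share of them that separates these groups is not known here. Of single miRNAs in AsPC-1, 13.7% lay lower and 16.9% higher after knockdown without overlap.
The ratio of hsa-mir-191-5p to hsa-mir-425-5p was 6.80, 7.15 and 6.60 in the AsPC-1 controls and 8.64, 8.29 and 9.44 after knockdown. Every knockdown culture had the higher ratio, by 0.36 on the log2 scale or 1.28-fold (exact permutation p = 0.1, adjusted p = 0.25). In PANC-1 the ratio was 5.74, 5.61 and 4.75 in the controls and 4.93, 4.94 and 4.52 after knockdown, with overlap and a difference of -0.16 (exact permutation p = 0.3, adjusted p = 0.45). The fold change of the ratio in PANC-1 was 0.70 of that in AsPC-1, a log2 difference of -0.52, with an exact permutation p of 0.015 and an adjusted p of 0.075, which does not pass. This contrast was added after the values had been seen, and it stayed between -0.60 and -0.46 when each library was left out (adjusted p 0.025 without PANC-1 control 3). Between the lines, over both treatments, the ratio was lower in PANC-1 by a log2 difference of -0.61, or 0.65-fold, in all 6 libraries (exact permutation p = 0.005, the smallest the design can give, adjusted p = 0.0375). This is the mean of -0.36 in the controls and -0.87 after knockdown. Ratios of other pairs were not tested, and the median absolute LFC of all miRNAs between the controls was 1.49.

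Within MIR425, the 5p arm outnumbered the 3p arm by 11.3, 11.4 and 11.96 reads to 1 in the AsPC-1 controls and by 11.03, 10.7 and 9.60 to 1 after knockdown. All knockdown values were below the controls, by -0.15 on the log2 scale (exact permutation p = 0.1, adjusted p = 0.25), and without AsPC-1 knockdown 3 the difference was -0.087. In PANC-1 the ratio was 12.5, 15.2 and 16.6 in the controls and 13.8, 12.4 and 15.7 after knockdown, a difference of -0.08 with overlapping groups (exact permutation p = 0.7, adjusted p = 0.75). The ratio was higher in PANC-1 than in AsPC-1 by 0.38 on the log2 scale (0.35 in the controls and 0.42 after knockdown), or 1.30-fold, with all 6 PANC-1 libraries above all 6 of AsPC-1 (exact permutation p = 0.005, adjusted p = 0.0375). Among single miRNAs, 82.8% were called between the controls of the lines, and the arm ratios of other hairpins were not tested. The call of the MIR425 arm ratio was lost, at an adjusted p of 0.075, without AsPC-1 control 1, 2 or 3 or without AsPC-1 knockdown 3 (log2 differences 0.37, 0.38, 0.39 and 0.35). The libraries of the lines still did not overlap there, and the exact p moves in coarse steps.
Within MIR191, the 3p arm made up 0.0829% to 0.114% of both arms' reads in the AsPC-1 libraries, and 0.105% to 0.141% in those of PANC-1. The exact (Clopper-Pearson) 95% intervals of single libraries ran from 0.0607% to 0.151% and from 0.0803% to 0.177%, covering counting error only. The 5p to 3p ratio was 918, 1205 and 1032 in the AsPC-1 controls and 920, 909 and 873 after knockdown, a log2 difference of -0.21 (exact permutation p = 0.2, adjusted p = 0.333), which was -0.11 without AsPC-1 control 2. In PANC-1 it was 795, 822 and 747 in the controls and 951, 707 and 815 after knockdown, a difference of 0.06 (exact permutation p = 0.8, adjusted p = 0.8). PANC-1 had a lower ratio than AsPC-1 by -0.27 on the log2 scale (-0.41 in the controls and -0.14 after knockdown), which did not pass after adjustment (exact permutation p = 0.02, adjusted p = 0.075) and passed without PANC-1 knockdown 1 (-0.33, adjusted p = 0.025).

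**Figure D4:**
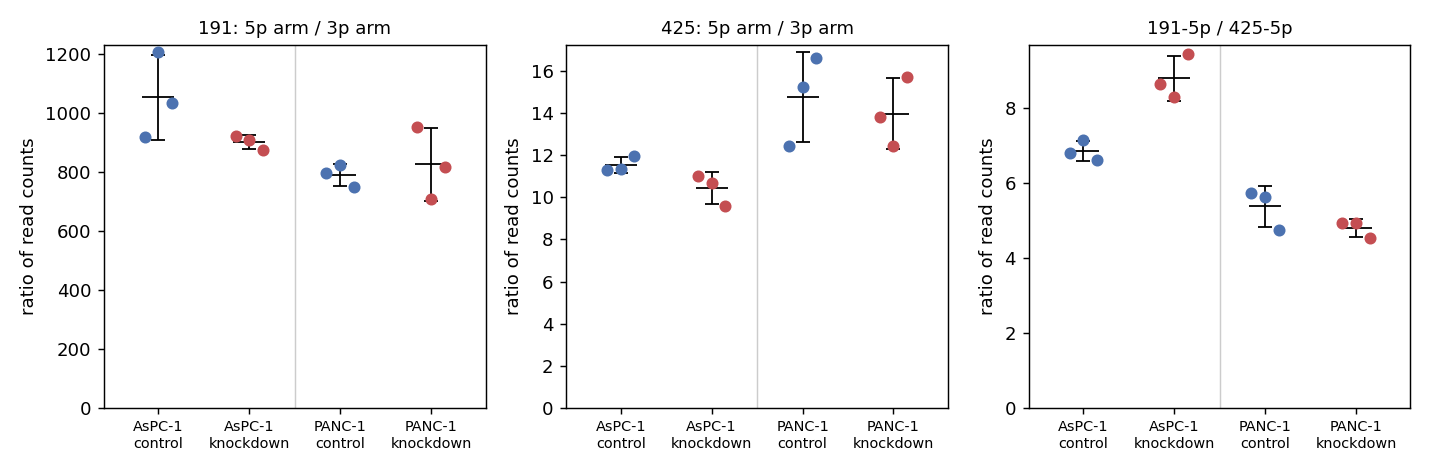
The plots show read-count ratios in each of the 12 libraries, 5p to 3p arm of MIR191, 5p to 3p arm of MIR425 and hsa-mir-191-5p to hsa-mir-425-5p, with control cultures in blue, knockdown cultures in red and bars for the mean and SD of 3. In the right plot the AsPC-1 knockdown cultures, at 8.29 to 9.44, lie above the controls, at 6.60 to 7.15, and the PANC-1 libraries lie below both, at 4.52 to 5.74.

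As a description, the arm ratios were placed among the 203 hairpins with reads of both arms and at least 1000 reads over the 12 libraries. Their median ratio of the major to the minor arm was 43.9, and in 104 of them the 5p arm was the major one. MIR191 was among the more one-sided, with a ratio of 866 and rank 28, and MIR425 was below the median, with 13.1 and rank 128.

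The miRNAs whose profile over the 12 libraries was most like that of each 5p arm were found by the root mean square of the differences in centered log2 CPM, among miRNAs with a mean of at least 100 CPM. For hsa-mir-191-5p, out of 196 compared, they were miR-660-5p (0.093), miR-125a-5p (0.094), miR-155-5p (0.127), miR-1180-3p (0.133) and miR-502-3p (0.157), against a median of 0.846. Its own cluster partners hsa-mir-425-3p and hsa-mir-425-5p came at rank 8 (0.177) and rank 38 (0.346). For hsa-mir-425-5p they were miR-99b-3p (0.112), miR-769-5p (0.151), miR-152-3p (0.156), miR-196a-5p (0.167) and miR-362-5p (0.177), and hsa-mir-425-3p came at rank 10 (0.234) and hsa-mir-191-5p at rank 21. The 12 points fall into 2 lines, so likeness includes the difference between the lines, and it says nothing of shared control.

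Other miRNAs that, like this cluster, lie in introns of host genes were called in both directions. Of 18 such arms, 1 was called higher and 2 lower after knockdown in AsPC-1 (median LFC -0.04, against -0.005 for all miRNAs tested, of which 7.03% were called higher and 4.42% lower). In PANC-1, 2 were called higher and 4 lower (median -0.01 against 0.03 for all, of which 12.7% were higher and 9.26% lower). miR-93-5p and miR-106b-5p, from an intron of MCM7, were lower in both lines, in AsPC-1 (LFC -0.40 and -0.32, adjusted p = 0.0251 and 0.0262 by edgeR) and in PANC-1 (LFC -0.36 and -0.42, adjusted p = 0.00471 and 0.00135 by edgeR). Their neighbor miR-25-3p was not called in either (LFC 0.0093 and -0.19). Both miR-30e arms come from an intron of NFYC, and miR-30e-3p was higher in both lines (LFC 0.68 and 0.38, adjusted p = 0.000148 and 0.00102 by edgeR), while miR-30e-5p was not called (LFC -0.01 and 0.19). Between the control cultures, 5 of the 18 were higher and 10 lower in PANC-1 (median -0.26 against 0.27 for all, of which 46.7% were higher and 36.0% lower). With upper-quartile factors, 200 of all miRNAs tested were called higher and 345 lower.

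**Figure D5:**
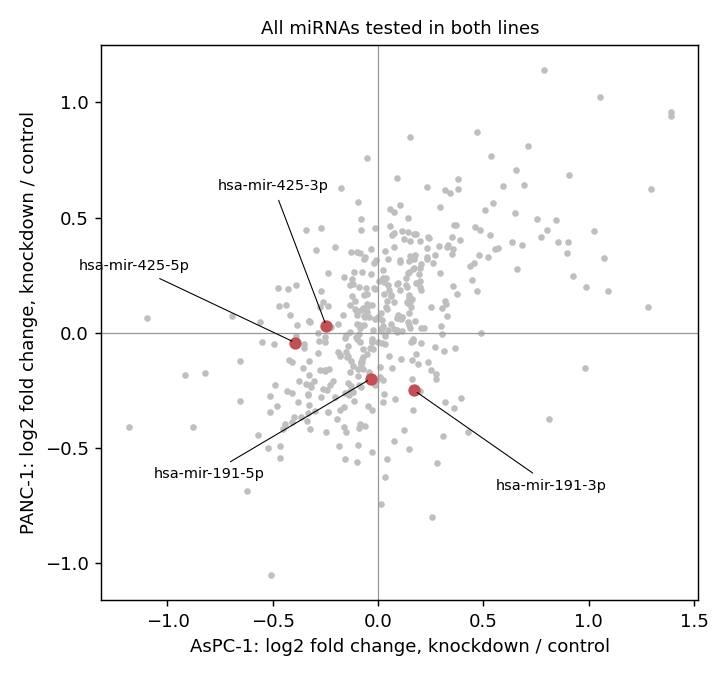
The plot shows the log2 fold change after knockdown in AsPC-1 (x axis) and in PANC-1 (y axis) of the 414 miRNAs tested in both lines in grey, with the 4 arms of the cluster in red. The miR-425 arms lie to the left near the zero line of PANC-1, and the miR-191 arms lie below it near or right of the zero line of AsPC-1, all within the cloud of other miRNAs.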

How the data were processed

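The authors trimmed the adapter, mapped reads to hg19 with Bowtie (version not given in the sources used here), kept perfect matches and deposited for each library raw counts of reads per mature miRNA, where only sequences sharing the most abundant 5′ end are counted. Isoforms with another 5′ end are therefore missing from every level and arm ratio. A miRNA that a library did not list was given a count of 0. From these counts, edgeR 4.0.16 in R 4.3.3 was used with filterByExpr (minimum count 10), TMM factors and the quasi-likelihood test without a replicate block. The Benjamini-Hochberg adjustment ran over every miRNA tested in a comparison, with a threshold of 0.05. Standard errors were computed from the LFC and its F statistic. DESeq2 1.42.0 was an alternative. Ratios were computed on raw counts and tested by two-sided exact permutation in Python 3.11.15. The scripts were tested on simulated data. The miRNAs named were the 4 arms, the 5 profiles most like each 5p arm and called members of the lists (reference, intronic and shared-seed miRNAs), plus members of the marker lists that check the cell lines, with uncalled intronic neighbors and uncalled references added after their values were seen. The members, lists and tests were chosen with earlier results of these data known. Groups came from the labels, and no library was left out. Library totals of 3805084 to 7311783 reads set the precision, and the Clopper-Pearson intervals of single libraries cover counting error only.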

Additional observations from a re-analysis of the deposited data

How the results depend on the processing

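Of 471 recomputed values, 429 kept their direction and side of the threshold or stayed within 1.5 times a count; hsa-mir-425-5p in AsPC-1 kept its call in all. The cause of the changes below was not tested unless the setting itself gives it. Calls in AsPC-1 numbered 57 (35 higher, 22 lower), 29 (23 and 6) with a replicate block, 70 (25 and 45) with all 12 libraries in 1 fit, and 24 to 102 without single libraries (102 without control 1, 24 without knockdown 1, 31 without knockdown 3). In the fit of 12 libraries hsa-mir-425-3p was -0.34. In PANC-1 there were 121 (70 and 51), 67 in the fit of 12, 143 (26 and 117) with total counts alone, 94 (65 and 29) with upper-quartile factors, and 55 to 129 without single libraries (55 without knockdown 3, 68 without knockdown 2). There hsa-mir-191-5p was called with total counts (-0.34), the DESeq2 Wald test (-0.21) and the replicate block (-0.20). With total counts hsa-mir-425-5p was -0.18 and hsa-mir-425-3p was -0.11, neither of them called. Without single libraries, hsa-mir-425-5p ranged from -0.10 to 0.0088 and hsa-mir-425-3p from -0.014 to 0.091 in PANC-1. For the difference of effects, calls numbered 4 with upper-quartile factors, 10 without a filter and 1 to 25 without single libraries (25 without AsPC-1 control 1), and hsa-mir-425-5p ranged from 0.38 to 0.52 without single libraries and from 0.22 to 0.50 over the other settings. Between the lines, upper-quartile factors gave 200 higher and 345 lower against 293 and 226, with -0.11 for hsa-mir-191-5p, 0.29 for hsa-mir-191-3p and -0.098 for hsa-mir-425-3p.

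Same-numbered libraries did not deviate together throughout (correlations -0.155, -0.121 and 0.128 for AsPC-1, 0.051, 0.029 and 0.139 for PANC-1, 0.248, 0.083 and 0.158 between the controls of the lines), so the numbers were not taken as pairs. With the replicate block, the line differences of the MIR425 arm ratio (0.38) and of the hsa-mir-191-5p to hsa-mir-425-5p ratio (-0.61) lost their call, where the sign-flip test cannot give an adjusted p under 0.05. The arm ratio of MIR191 ranged without single libraries from -0.31 to -0.11 in AsPC-1, from -0.053 to 0.16 in PANC-1 and from -0.33 to -0.22 between the lines. That of MIR425 ranged from -0.19 to -0.087 in AsPC-1, from -0.19 to 0.016 in PANC-1, from 0.34 to 0.44 between the lines and from -0.046 to 0.16 for the difference of effects. The difference of effects on the hsa-mir-191-5p to hsa-mir-425-5p ratio ranged from -0.60 to -0.46, and its value in PANC-1 from -0.24 to -0.11. Depth limits hsa-mir-191-3p most, at 46 to 110 reads a library.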

Other observations

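Because miR-191-5p is often used as a reference miRNA, its spread over the 12 libraries was set beside those of other abundant miRNAs. The SD of its log2 CPM was 0.35, rank 56 from the flattest of 197 miRNAs with a mean of at least 100 CPM, whose median SD was 0.68. This SD pools both lines, whose difference for this arm changes with the scaling (LFC 0.81 with TMM, -0.11 with upper-quartile factors), while within a group its coefficient of variation on the same CPM scale was 2.89% to 7.82%, and 1.57% to 4.66% with the TMM factors of each line alone. hsa-mir-425-3p (0.48) was at rank 74 and hsa-mir-425-5p (0.69) at rank 100. Of 7 other miRNAs listed as common references, miR-93-5p was called lower after knockdown in AsPC-1 (LFC -0.40), and miR-93-5p and miR-103a-3p were called lower in PANC-1 (LFC -0.36 and -0.28). Of all miRNAs tested, 4.42% were called lower in AsPC-1 and 9.26% in PANC-1. Between the control cultures, miR-423-5p was higher in PANC-1 (LFC 0.31), miR-26a-5p, miR-93-5p, miR-103a-3p and miR-25-3p were lower (LFC -0.56, -0.55, -0.34 and -0.24), and miR-16-5p and miR-24-3p were not called (LFC -0.21 and 0.19, edgeR with TMM factors), so 5 of 7 were called, against 82.8% of all miRNAs tested. These directions between the lines rest on TMM scaling, under which the median of all miRNAs was 0.27.

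All 4 arms together made up 0.956%, 0.895% and 0.871% of the counted reads in the AsPC-1 controls and 0.821%, 0.860% and 0.874% in the knockdown cultures, and the groups overlapped, since knockdown 3 lay above control 3. In PANC-1 they made up 1.99% to 2.14% in the controls and 1.61% to 1.80% in the knockdown cultures, without overlap, and on this scale 28.7% of the miRNAs tested there had every knockdown culture below every control. In PANC-1 control 1, 75503 of the 89803 reads of the cluster were of hsa-mir-191-5p. On this scale hsa-mir-425-3p overlapped between the PANC-1 groups. A share of reads is the scale of total counts, on which the median LFC of all miRNAs in PANC-1 was 0.15 lower than with TMM and 26 miRNAs were called higher and 117 lower. In the main edgeR fit, with TMM and without a replicate block, no arm was called there, and the LFC of hsa-mir-191-5p was -0.20.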
